A study of Mus musculus with 39 samples.

Results

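The 46 genes described here encode proteins that copy DNA or divide the cell. They were taken by symbol, and all 46 of them were found among the 28023 symbols of each of 2 expression tables. By their textbook roles, 20 were treated as S phase genes and 26 as mitotic genes. The S phase genes were Ccne1, Ccne2, E2f1, Cdc6, Cdc45, Mcm2, Mcm3, Mcm4, Mcm5, Mcm6, Mcm7, Gins1, Gins2, Pcna, Fen1, Tyms, Tk1, Rrm1, Rrm2 and Uhrf1. The mitotic genes were Mki67, Top2a, Ccna2, Ccnb1, Ccnb2, Cdk1, Cdc20, Cdca3, Cdca8, Cenpa, Cenpe, Cenpf, Birc5, Bub1, Bub1b, Aurka, Aurkb, Plk1, Kif11, Kif20a, Kif23, Tpx2, Nusap1, Ube2c, Hmmr and Stmn1.

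A cell that starts a division cycle first activates the kinases of the D cyclins, which release E2F factors from the retinoblastoma protein. E2F then switches on the genes for licensing and copying DNA and for making deoxynucleotides, the E cyclins among them. Later in the cycle, cyclins A and B with Cdk1 drive entry into mitosis, where the spindle, the kinetochores and the checkpoint separate the chromosomes. Activated CD8+ T cells are among the fastest dividing cells of an adult animal, and these genes are commonly used to mark their proliferation, Mki67 most of all.

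All mice were wild-type C57BL/6, a common inbred strain, and carried subcutaneous tumors of MCA-205, a fibrosarcoma line of the same strain. All had received faecal microbiota transplants (FMT) of human volunteer stool, either treated with CZA and DAV132, a colon-targeted adsorbent, or treated with CZA alone, for 6 days in both arms; the labels name CZA by that abbreviation. Tumors were implanted 2 weeks after FMT, and at 25 to 35 mm2 the mice were given 4 intraperitoneal injections, 3 days apart, of anti-PD-1 (clone RMP1-14, 250 µg), which blocks PD-1, an inhibitory receptor on T cells, or else an isotype-matched control (clone 2A3), with collection 2 days after the last. The groups were CZA+DAV132 with anti-PD-1, CZA+DAV132 with isotype, CZA with anti-PD-1 and CZA with isotype. Each had 5 libraries of CD8+ T cells sorted from tumors, 20 in all. A separate experiment with the same FMT material gave 5 libraries labelled bulk tumor in each group but CZA+DAV132 with isotype, which had 4, 19 in all. The comparisons ask whether DAV132 given beside CZA alters the response to anti-PD-1.

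Values are TPM, a length-adjusted share of all transcripts; sequencing depth cannot be read from them and is unknown. Whether every library came from a mouse of its own is not labelled, and the p-values therefore reflect variation among libraries that may be partly technical. The stool of an FMT arm is not replicated, so an effect of DAV132 cannot be told apart from other differences between the stools. The same holds in the bulk tumor set for whatever goes with the library names, which run from T021 to T030 in the CZA+DAV132 arm and from T982 to T991 in the CZA arm. In the CD8 set, 18 symbols whose transcripts are mostly satellite or simple repeats took 12.0% to 69.9% of all TPM with anti-PD-1 in the CZA+DAV132 arm, against 2.36% to 8.58% in the CZA+DAV132 isotype libraries, and they took 0.351% to 25.6% in the CZA arm. The highest shares were 69.9% in CD8-19 and 29.2% in CD8-16, both CZA+DAV132 with anti-PD-1, and 51.1% in T026 among the bulk tumor libraries. T cell markers (10 genes, among them Cd3e and Cd8a) summed to 2794 to 12210 TPM in the CD8 libraries and to 2998 to 7599 TPM in the libraries labelled bulk tumor. In the bulk tumor set the 12 fibroblast and sarcoma markers summed to 7.91 to 429 TPM in 18 of the libraries and to 1893 TPM in T986, with Lum at 0 in 18 libraries and Pdgfrb in 15. These libraries are called here by their label.

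The promoters of the members are shown first because letters in them follow the split into S phase and mitotic genes. RefSeq promoters (build GRCm38.p6, 250 bases before to 50 after the start) were listed for 37 members, 16 of the S phase and 21 of the mitotic genes. Ccne2, Mcm4, Gins1, Gins2, Ccna2, Aurkb, Tpx2, Kif20a and Stmn1 were not matched. The letters of 3 motifs were searched on both strands: those known for E2F factors (TTCCCGC and TTCGCGC, with the variants TTGCCGC and TTGGCGC), those of the cell cycle homology region, or CHR, known from G2 and M phase genes (TTTGAA or TTCGAA), and CCAAT, known for the factor NF-Y. The E2F letters read on the other strand can share bases with CCAAT, and TTCGAA reads the same on both strands. E2F letters were found in 9 of 16 S phase genes (56.2%) and in 4 of 21 mitotic genes (19%), against 10.9% of all 27025 genes with a listed promoter and 19.5% of the 8970 of them tested in the CD8 set. CHR letters were found in 17 of 21 mitotic genes (81%) and in 4 of 16 S phase genes (25%), against 21.7% of all genes and 17% of those tested, and in 16 of the mitotic genes they lay within 50 bases of the start. CCAAT was found in 19 mitotic genes (90.5%) and 10 S phase genes (62.5%), against 41.1% of all genes and 43.5% of those tested. Ccne1, E2f1, Tyms, Tk1, Birc5 and Nusap1 had listed promoters with none of the 3 motifs. Tyms and Birc5 are among the largest falls described below. The 6 promoters printed here are examples of members that hold the letters, in 5′ to 3′ order of the gene's strand. Capitals mark E2F letters in Mcm5 (chr8:75109259-75109558, plus strand) and Mcm6 (chr1:128359656-128359955, minus strand), and CHR letters in Cdk1 (chr10:69352863-69353162, minus strand), Ccnb2 (chr9:70421505-70421804, minus strand), Cdca3 (chr6:124829926-124830225, plus strand) and Top2a (chr11:99024140-99024439, minus strand).
Mcm5: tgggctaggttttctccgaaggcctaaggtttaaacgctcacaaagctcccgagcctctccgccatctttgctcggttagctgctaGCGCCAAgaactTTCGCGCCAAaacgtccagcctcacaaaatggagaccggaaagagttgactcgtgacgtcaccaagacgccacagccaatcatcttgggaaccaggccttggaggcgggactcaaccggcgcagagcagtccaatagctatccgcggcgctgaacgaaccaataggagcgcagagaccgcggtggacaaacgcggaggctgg
Mcm6: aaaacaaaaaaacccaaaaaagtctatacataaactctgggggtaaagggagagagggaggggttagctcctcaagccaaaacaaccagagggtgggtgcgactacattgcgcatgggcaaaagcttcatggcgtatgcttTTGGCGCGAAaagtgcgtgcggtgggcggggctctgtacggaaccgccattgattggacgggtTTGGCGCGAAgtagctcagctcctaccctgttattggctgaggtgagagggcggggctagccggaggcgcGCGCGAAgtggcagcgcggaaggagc
Cdk1: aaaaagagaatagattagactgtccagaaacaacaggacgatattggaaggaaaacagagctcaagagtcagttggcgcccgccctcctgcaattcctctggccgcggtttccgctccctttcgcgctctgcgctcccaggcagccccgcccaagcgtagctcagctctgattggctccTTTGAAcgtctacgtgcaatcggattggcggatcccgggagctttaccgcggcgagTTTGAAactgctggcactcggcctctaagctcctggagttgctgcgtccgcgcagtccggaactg
Ccnb2: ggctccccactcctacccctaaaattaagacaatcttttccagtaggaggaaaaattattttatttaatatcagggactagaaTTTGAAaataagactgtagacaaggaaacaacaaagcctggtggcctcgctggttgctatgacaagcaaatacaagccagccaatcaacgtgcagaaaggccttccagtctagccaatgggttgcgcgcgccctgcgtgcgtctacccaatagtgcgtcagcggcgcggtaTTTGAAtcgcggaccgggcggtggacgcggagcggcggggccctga
Cdca3: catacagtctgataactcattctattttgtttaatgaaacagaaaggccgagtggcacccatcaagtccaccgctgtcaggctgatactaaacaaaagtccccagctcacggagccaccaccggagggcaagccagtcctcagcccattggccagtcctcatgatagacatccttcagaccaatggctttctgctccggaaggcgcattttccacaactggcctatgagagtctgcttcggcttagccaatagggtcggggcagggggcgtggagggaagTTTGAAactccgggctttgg
Top2a: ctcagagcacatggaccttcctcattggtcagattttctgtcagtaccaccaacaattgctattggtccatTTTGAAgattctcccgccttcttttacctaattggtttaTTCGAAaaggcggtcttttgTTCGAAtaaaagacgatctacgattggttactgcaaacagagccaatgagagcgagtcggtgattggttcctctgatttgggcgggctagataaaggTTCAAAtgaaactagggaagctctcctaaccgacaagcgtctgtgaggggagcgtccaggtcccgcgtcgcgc
A match is a description of these letters, not a binding site, and no match says only that the letters are not in this window.

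All 46 genes passed the filter on low values (1 TPM or more in 4 or more libraries) in both sets, as did 12942 genes in all for CD8+ T cells and 13326 for bulk tumor. Across the 20 CD8 libraries the highest median levels in TPM were those of Stmn1, which destabilises microtubules, at 636 TPM (range 140 to 947), and Pcna, the sliding clamp of DNA polymerases, at 274 TPM (70.6 to 348). Birc5, or survivin, followed at 187 TPM (44.9 to 323). The lowest were Cenpe, a kinetochore motor, at 4.08 TPM (1.18 to 5.03), and Kif20a, a motor of cytokinesis, at 4.11 TPM (1.42 to 5.76), whose ranges overlap almost wholly. Mki67 had a median of 12.3 TPM (4.28 to 17.6) and stood 32nd of the 46. In the bulk tumor set Pcna (402 TPM, 166 to 608), Stmn1 (230 TPM, 87.0 to 522) and Top2a (214 TPM, 98.5 to 319) had the highest medians. The 2 tables may have been normalised separately, so levels are not compared between them.

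**Figure D1:**
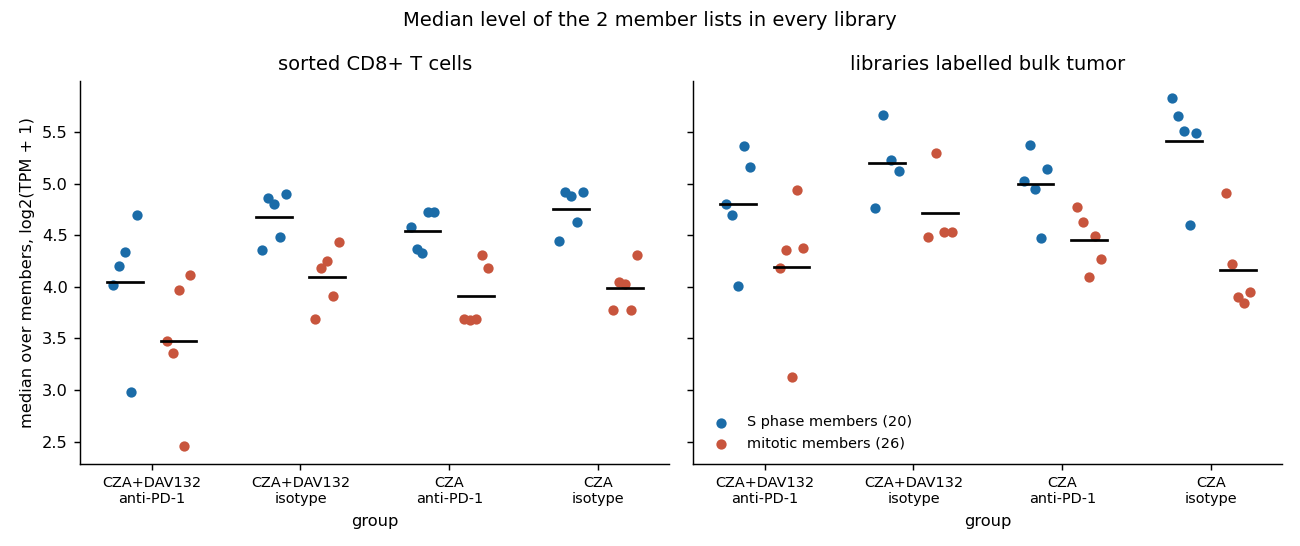
Median over the 20 S phase genes (blue) and the 26 mitotic genes (red) in every library, in log2(TPM + 1), by group, for CD8+ T cells (left) and libraries labelled bulk tumor (right), with black bars at the group means. In the CD8 set the CZA+DAV132 anti-PD-1 libraries hold the lowest values, down to 2.99 for S phase and 2.45 for mitotic genes in CD8-19, while CD8-18 (4.33 and 3.97) and CD8-20 (4.70 and 4.11) of that group lie within the range of the other groups.

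In the CZA+DAV132 arm, 21 of the 46 genes fell in CD8+ T cells with anti-PD-1 relative to isotype and none rose (limma, Benjamini-Hochberg adjusted p under 0.05 over all genes). The 21 were 11 of the 20 S phase genes and 10 of the 26 mitotic genes, or 45.7% of the members, where 19.4% of all tested genes were called lower and 4.12% higher. The median log2 change was -0.76 over the S phase genes and -0.54 over the mitotic genes. The median of all genes was itself at -0.34 here, so relative to it the lists stood at -0.42 and -0.20. Both list medians were below 0 under each of the 9 alternatives, between -0.26 and -0.81 for S phase and between -0.10 and -0.74 for mitotic genes. Since each library holds RNA of many cells, fewer dividing cells and less RNA per cell cannot be told apart. TPM is also a share of all transcripts, so a higher repeat share by itself lowers the TPM of other genes. The repeat shares of these groups, given above, do not overlap, and counts with TPM rescaled without repeat entries are given below.

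Among the S phase genes the largest falls were those of Tyms and Gins2. Tyms, the thymidylate synthase, had 30.5, 56.2, 60.3, 21.6 and 97.6 TPM in CZA+DAV132 anti-PD-1 libraries, against 132, 176, 172, 116 and 177 TPM in CZA+DAV132 isotype libraries. The groups do not overlap, with CD8-19 lowest and CD8-20 nearest to the isotype libraries. The log2 change was -1.69 (SE 0.33, limma adjusted p 0.00593). Gins2, a subunit of the GINS complex that joins the helicase, had 4.81, 12.3, 12.9, 8.02 and 11.3 TPM in anti-PD-1 libraries, against 30.9, 29, 31.8, 19.4 and 39.2 TPM in isotype libraries of this arm. These groups do not overlap either, and here CD8-16 was lowest. The log2 change of Gins2 was -1.55 (SE 0.27, limma adjusted p 0.00500).

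Ccne2, one of the cyclins E that open S phase, averaged 3.46 ± 1.34 TPM with anti-PD-1 and 9.30 ± 3.96 TPM with isotype (SD, n = 5 each), a log2 change of -1.19 (SE 0.31, limma adjusted p 0.0117). Its groups overlap through CD8-14, an isotype library with 4.14 TPM. Rrm1, the large subunit of ribonucleotide reductase, averaged 8.58 ± 3.09 TPM with anti-PD-1 and 16.0 ± 1.89 TPM with isotype, without overlap (log2 change -0.90, SE 0.27, limma adjusted p 0.0213). Mcm6 and Mcm5, subunits of the helicase ring, and Tk1, the thymidine kinase of the salvage route, also fell, by 0.89, 0.89 and 0.97 on the log2 scale. Mcm5 had 9.51, 15.6, 15.9, 5.88 and 20.0 TPM in anti-PD-1 libraries, against 17.3, 29.3, 24.4, 20.3 and 29.7 TPM in isotype libraries (limma adjusted p 0.0316). Its highest anti-PD-1 library, CD8-20, was above CD8-11 of the isotype group. The other called S phase genes were Mcm2, Gins1, Fen1 and Cdc45, with limma adjusted p between 0.0340 and 0.0481. The helicase ring subunits Mcm3, Mcm4 and Mcm7 did not pass. Their log2 changes were -0.51, -0.52 and -0.65 (limma adjusted p 0.168, 0.162 and 0.097).

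Several of the best known S phase genes did not pass. Pcna had 207, 212, 237, 70.6 and 333 TPM in anti-PD-1 libraries, against 302, 316, 321, 348 and 306 TPM in isotype libraries. In Pcna 4 of the 5 anti-PD-1 libraries were below every isotype library and CD8-20 was above 4 of those 5 (log2 change -0.74, SE 0.28, limma adjusted p 0.0614). Rrm2, the small subunit of ribonucleotide reductase, had 51.1, 50.7, 59.4, 17.0 and 68.6 TPM in anti-PD-1 libraries, against 64.5, 87.2, 82.4, 63.9 and 99.8 TPM in isotype libraries (log2 change -0.79, limma adjusted p 0.0568). Pcna and Rrm2 each passed as lower in 2 of 9 alternatives. With array weights the limma adjusted p was 0.0219 for Pcna and 0.043 for Rrm2. With a mean of at least 5 TPM as filter it was 0.0479 for Pcna and 0.0409 for Rrm2. E2f1, the transcription factor, had 7.97, 6.70, 6.93, 16.7 and 10.0 TPM in anti-PD-1 libraries, against 10.5, 9.01, 12.7, 10.8 and 11.0 TPM in isotype libraries (log2 change -0.21, limma adjusted p 0.554). For E2f1 the highest library of both groups was CD8-19, the library with the largest repeat share. Transcripts of E2f1 hold a di- or mononucleotide repeat of 46 bases, whose part in this value was not tested. A p that misses the threshold does not show that the values did not differ.

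**Figure D2:**
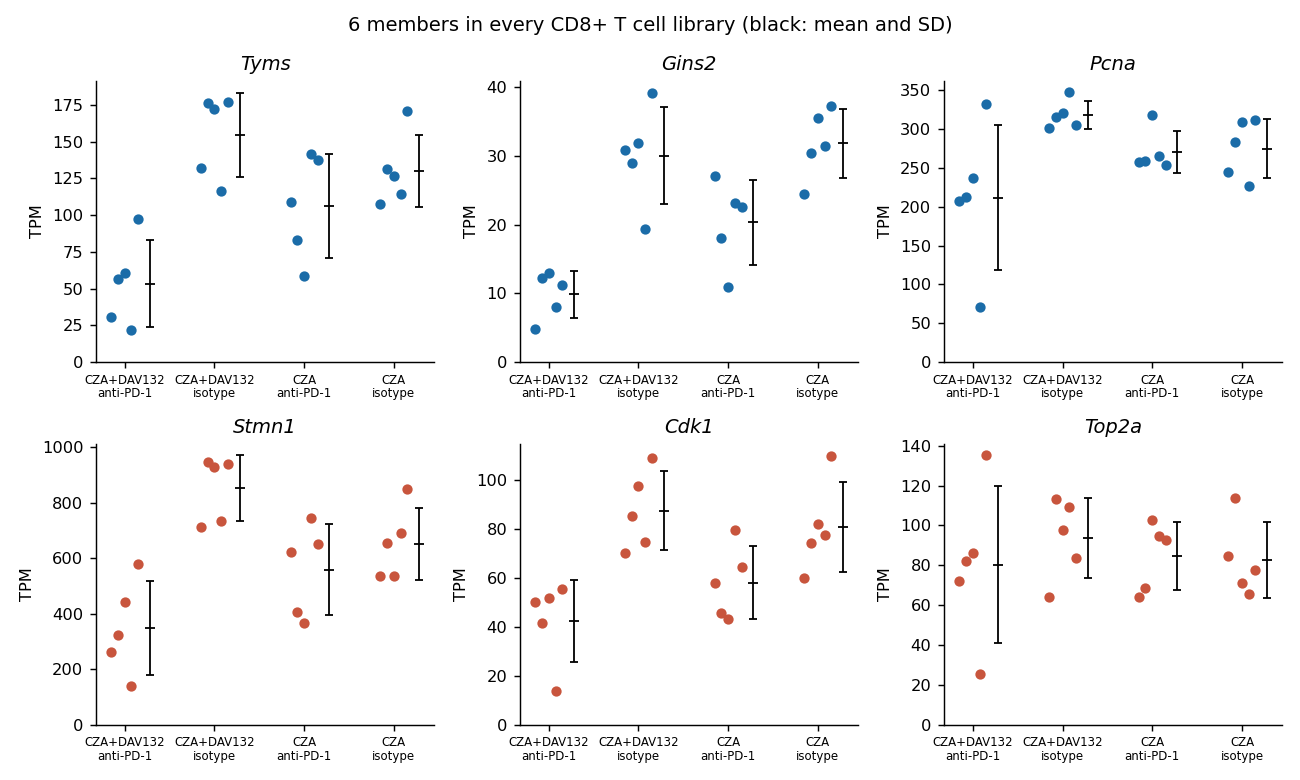
TPM of 3 S phase genes (blue: Tyms, Gins2, Pcna) and 3 mitotic genes (red: Stmn1, Cdk1, Top2a) in each CD8+ T cell library by group, with the mean and SD in black (n = 5 per group). For Tyms, Gins2, Stmn1 and Cdk1 every CZA+DAV132 anti-PD-1 library lies below every CZA+DAV132 isotype library, while Pcna and Top2a overlap.

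Ccne1, the other cyclin E, had the opposite sign. It was measured at 20.4, 26.6, 23.5, 19.7 and 26.9 TPM in CZA+DAV132 anti-PD-1 libraries, against 18.3, 18.6, 19.4, 17.0 and 16.4 TPM in CZA+DAV132 isotype libraries. The groups do not overlap, but the difference did not pass (log2 change 0.36, SE 0.20, limma adjusted p 0.195). It did pass in 4 of 9 alternatives, with log2 changes of 0.82 under median-ratio scaling, 0.88 with TPM rescaled without repeat entries, 0.45 with array weights and 0.93 with the length trend removed. Groups without overlap were found for 9 members in the lower direction, against 12.1% of all genes, and for Ccne1 in the higher direction, against 2.85% of all genes. Transcripts of Ccne1 hold a di- or mononucleotide repeat of 25 bases, and its part in this value was not tested. Such a repeat has 30 bases in Kif23 (log2 change -0.30, not called) and 23 in Rrm1 (-0.90, lower without overlap).

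Among the mitotic genes the falls were largest in Stmn1, Birc5, Ccnb2 and Cdk1. Stmn1 had 260, 322, 443, 140 and 579 TPM in CZA+DAV132 anti-PD-1 libraries, against 713, 947, 930, 736 and 940 TPM in CZA+DAV132 isotype libraries. The groups do not overlap, with CD8-19 lowest and CD8-20 highest among the anti-PD-1 libraries. The log2 change was -1.43 (SE 0.31, limma adjusted p 0.00747). Cdk1, the kinase that starts mitosis, had 49.9, 41.3, 51.7, 13.7 and 55.3 TPM in anti-PD-1 libraries, against 70.0, 85.3, 97.5, 74.6 and 109 TPM in isotype libraries, again without overlap. Its log2 change was -1.15 (SE 0.30, limma adjusted p 0.0132).

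Birc5, a subunit of the chromosomal passenger complex, averaged 108 ± 41.2 TPM with anti-PD-1 and 244 ± 54.0 TPM with isotype (SD, n = 5 each; log2 change -1.24, limma adjusted p 0.0104). Ccnb2, a B cyclin, averaged 30.8 ± 14.5 TPM with anti-PD-1 and 64.0 ± 8.15 TPM with isotype (log2 change -1.17, limma adjusted p 0.0116). Cdca3, part of a ligase that permits entry into mitosis, averaged 27.1 ± 15.2 TPM with anti-PD-1 and 53.3 ± 7.40 TPM with isotype (log2 change -1.13, limma adjusted p 0.0138). None of these 3 genes overlapped between the groups. Cdca8, the passenger complex subunit borealin, also fell (log2 change -0.93, limma adjusted p 0.0205). Ccnb1, the other B cyclin, had 5.35, 7.88, 9.86, 3.78 and 12.0 TPM in anti-PD-1 libraries, against 9.83, 14.6, 13.0, 13.0 and 19.6 TPM in isotype libraries, and passed with overlap (log2 change -0.83, limma adjusted p 0.0324). The other called mitotic genes were Nusap1, Cdc20 and Cenpa, with limma adjusted p between 0.0277 and 0.0484.

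Mki67, Top2a and Plk1, which are often read as markers of dividing cells, did not pass. Mki67 had 11.2, 10.9, 14.1, 4.28 and 17.6 TPM in CZA+DAV132 anti-PD-1 libraries, against 10.2, 15.5, 13.6, 12.1 and 12.8 TPM in CZA+DAV132 isotype libraries. The highest and the lowest of these 10 values, CD8-20 and CD8-19, were both in the anti-PD-1 group (log2 change -0.23, SE 0.26, limma adjusted p 0.550). Top2a, the topoisomerase that untangles chromosomes, had 71.9, 82.3, 86.4, 25.2 and 136 TPM in anti-PD-1 libraries, against 64.0, 113, 97.9, 109 and 83.6 TPM in isotype libraries (log2 change -0.37, limma adjusted p 0.425). Plk1, a kinase of mitotic entry and exit, had 6.66, 7.33, 12.4, 3.20 and 8.83 TPM in anti-PD-1 libraries, against 5.35, 10.4, 10.2, 7.50 and 10.2 TPM in isotype libraries (log2 change -0.22, limma adjusted p 0.595). Set against the median of all genes, the changes were 0.10 for Mki67, -0.03 for Top2a and 0.12 for Plk1.

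**Figure D3:**
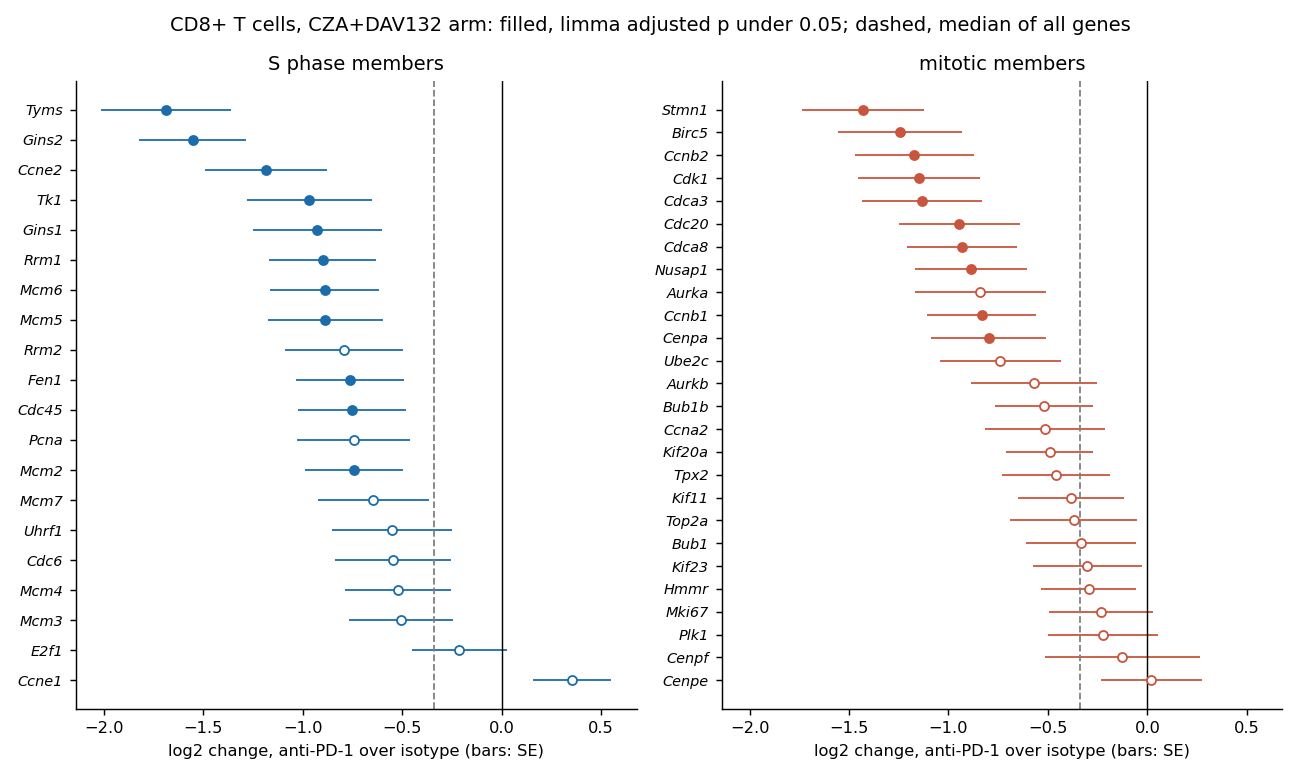
Log2 change of each gene with anti-PD-1 over isotype in the CZA+DAV132 arm, CD8+ T cells, with SE bars, S phase genes on the left and mitotic genes on the right, ordered by size. Filled points passed (limma adjusted p under 0.05), open points did not, and the dashed line is the median of all genes at -0.34; the points run from -1.69 for Tyms to 0.36 for Ccne1.

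The promoter letters were counted in called and other members. CHR letters were found in 6 of the 9 called mitotic genes with a listed promoter and in 11 of the 12 that were not called. E2F letters were found in 4 of the 8 called S phase genes and in 5 of the 8 that were not called. Of the promoters printed above, those of Mcm5, Mcm6, Cdk1, Ccnb2 and Cdca3 belong to genes that fell, and that of Top2a, with 4 CHR matches, to a gene that did not pass.

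Genes of the same pathways outside the 46 members were counted in this comparison, where 19.4% of all genes were called lower and 4.12% higher. Of 38 other replication genes, 12 were called lower and none higher (median log2 change -0.52). They include Rfc4, a clamp loader subunit (-1.39), Rpa3, which coats single-stranded DNA (-1.27), Gins4 (-1.15) and Dut, the dUTPase (-1.12). Of 50 other mitotic genes, 14 were called lower and 1 higher (median -0.41), among them the kinetochore gene Spc25 (-1.49), the Cdk partner Cks2 (-1.32) and the condensin gene Smc2 (-1.29). The gene called higher was Smc4, also a condensin subunit, which averaged 933 ± 481 TPM with anti-PD-1 and 347 ± 72.8 TPM with isotype (log2 change 1.26, limma adjusted p 0.0417). Of 12 G1 cyclins, kinases and activators, only Cks1b passed (-1.41), and the list median of -0.36 was at that of all genes. Of 16 genes that hold back the cycle, 6 were called lower (median -0.48), with Cdkn1a, which encodes the inhibitor p21, at -1.24, Tob1 at -1.23, Btg2 at -1.14 and E2f5 at -0.85. With TPM rescaled without repeat entries the medians were -0.04 for other replication genes, 0.02 for other mitotic genes, 0.12 for the G1 list and 0.05 for the genes that hold back the cycle, with 7, 6, 1 and 1 called lower, against 9.08% of all genes. Without CD8-16 and CD8-19, 3, 6, 1 and 1 genes of these lists were called lower, against 5.20% of all genes.

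The count of 21 depends on which libraries are in the fit. Without the 2 libraries richest in repeats, CD8-16 and CD8-19, 4 members were called lower (Cdk1, Gins2, Stmn1 and Tyms), or 8.7% of the members against 5.20% of all genes. With TPM rescaled without the repeat entries, 8 members were lower (17.4%, against 9.08% of all genes) and Ccne1 was higher. In the fit of only the groups compared 6 members passed, against 8.35% of all genes called lower, and with no filter 13, against 8.70% of all genes. Leaving out 1 library gave 8 called members without CD8-15, 9 without CD8-12, 10 without CD8-16, 11 without CD8-13 and 11 without CD8-19, with 15 to 28 in the other cases. The share of all genes called lower moved too, to 11.9% without CD8-15, 14.3% without CD8-12, 11.5% without CD8-16, 13.4% without CD8-13, 12.6% without CD8-19 and 29.8% without CD8-20, where 28 members passed. Gins2, Stmn1 and Tyms passed in all 9 alternatives and in all 20 fits with 1 library left out. Birc5, Ccnb2 and Ccne2 lost their call without CD8-16 and CD8-19 (limma adjusted p 0.0564, 0.0780 and 0.0659), Cdk1 in the fit of only the groups compared (limma adjusted p 0.0532), and Cdca3 in both (limma adjusted p 0.0880 and 0.0562). The smallest changes over these alternatives were -1.13 for Tyms, -1.06 for Gins2 and -0.80 for Stmn1.

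Other measures differed in range between the groups of this arm. The repeat shares, given above, do not overlap between anti-PD-1 and isotype libraries of the CZA+DAV132 arm. T cell markers summed to 2794 to 8393 TPM in anti-PD-1 libraries (2794 in CD8-16 and 2846 in CD8-19), against 7418 to 9628 TPM in isotype libraries. Markers of macrophages and monocytes (12 genes) summed to 63.4 to 310 TPM in anti-PD-1 libraries, against 81.0 to 811 TPM in isotype libraries, and those of dendritic cells (10 genes) to 49.0 to 193 TPM in anti-PD-1 libraries, against 112 to 551 TPM in isotype libraries. Fibroblast and sarcoma markers summed to 17.0 to 327 TPM in anti-PD-1 libraries, against 6.74 to 97.9 TPM in isotype libraries. NK cell markers (6 genes) summed to 62.0 to 179 TPM in anti-PD-1 libraries, against 169 to 347 TPM in isotype libraries, and erythroid markers (5 genes) to 111 to 841 TPM in anti-PD-1 libraries, highest in CD8-16, against 113 to 551 TPM in isotype libraries. Among the macrophage markers Adgre1 was at 0 in 1 of the 20 CD8 libraries. Over these libraries the NK cell sum came mostly from Klre1 (median 158 TPM), with Ncr1 at 0.457 TPM and Klra8 at 0.488 TPM. The dendritic cell sum came mostly from Cd74 (median 185 TPM) and H2-Ab1 (75.65 TPM). Clec9a was at 0 in 11 libraries and Cd209a in 9. The part of cells with any of these markers in the result was not tested.

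Change also went with annotated transcript length. Spearman's rho between the log2 change and the median length of a gene's coding transcripts was 0.29 over 12840 genes and 0.40 over the 46 members, as a description of genes measured in the same 10 libraries. The 23 members with shorter median lengths had a median change of -0.83, and the 23 with longer ones a median change of -0.51. Over 5 equal bins of all genes from short to long, the median changes were -0.47, -0.62, -0.43, -0.25 and -0.12. With the length trend removed in each library, 14 members were called lower (30.4%, against 12% of all genes), with list medians of -0.36 for S phase and -0.29 for mitotic genes. By median transcript length the S phase and mitotic lists are alike, with medians of 2449 and 2311 bases. This measure takes every annotated coding transcript of a gene alike, expressed or not, so the expressed length can differ from it. It is 658 bases for Mcm4 and 795 for Mcm7, against 2653 for Mcm5 and 3632 for Mcm6.

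**Figure D4:**
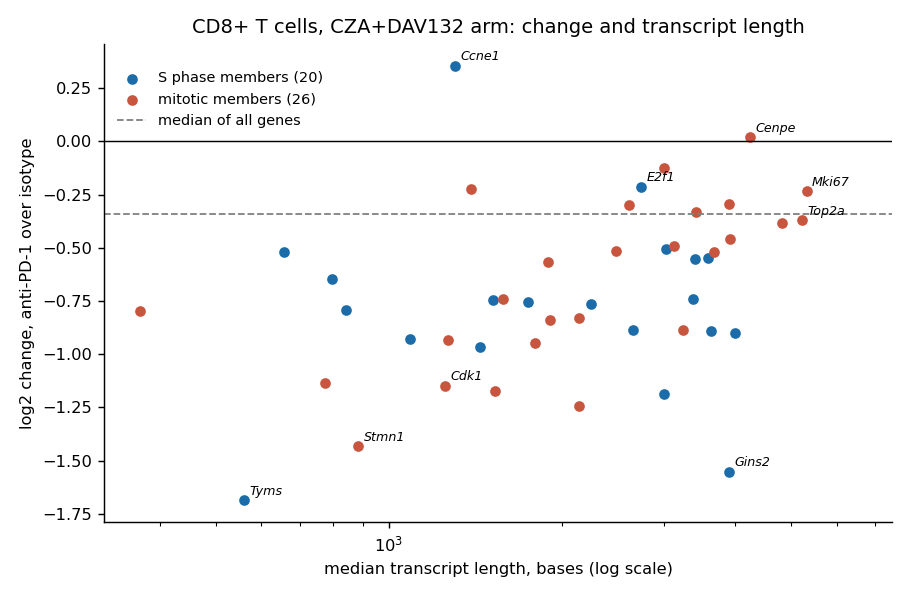
Log2 change with anti-PD-1 over isotype in the CZA+DAV132 arm, CD8+ T cells, against the median length of a gene's coding transcripts (log axis), for the 20 S phase genes (blue) and 26 mitotic genes (red), with the median of all genes (-0.34) dashed. Members with a short median length such as Tyms and Stmn1 lie low, and those with a long one such as Mki67 and Top2a lie near the dashed line. Several members go the other way, among them the long Gins2 (-1.55), Ccne2 (-1.19) and Rrm1 (-0.90) and the short Ccne1 (0.36).

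In CD8+ T cells of the CZA arm no member passed with anti-PD-1 relative to isotype, where 0.0155% of all genes were called in either direction. At an unadjusted p under 0.05 there were 2 members, both S phase genes, and 5.11% of all genes. No member had groups without overlap in either direction, where 0.44% of all genes were lower and 1.15% higher without overlap. Of the S phase genes 19 of 20 had a negative change, with a median of -0.20, and of the mitotic genes 18 of 26, with a median of -0.11; the median of all genes was -0.02. Ccne1 averaged 17.9 ± 3.68 TPM with anti-PD-1 and 26.5 ± 5.92 TPM with isotype (SD, n = 5 each; log2 change -0.53, limma adjusted p 0.765). Gins2 had 27.1, 18.1, 10.9, 23.2 and 22.5 TPM in CZA anti-PD-1 libraries, against 24.4, 30.4, 35.5, 31.5 and 37.4 TPM in CZA isotype libraries (log2 change -0.67, limma adjusted p 0.862). The groups overlap in Gins2, with CD8-8 lowest. Among mitotic genes the smallest p-values were those of Cdk1 (log2 change -0.47) and Cdc20, the activator of the anaphase ligase (-0.41), both at a limma adjusted p of 0.997. Tyms had 109, 83.3, 58.6, 141 and 138 TPM in CZA anti-PD-1 libraries, against 108, 131, 127, 114 and 171 TPM in CZA isotype libraries, groups that overlap. Mki67 had 8.53, 12.3, 12.7, 12.3 and 16.1 TPM in CZA anti-PD-1 libraries, against 11.6, 13.7, 10.4, 9.59 and 12.9 TPM in CZA isotype libraries, with CD8-10 highest and CD8-6 lowest, both with anti-PD-1. Macrophage markers summed to 90.6 to 554 TPM in these anti-PD-1 libraries, against 320 to 2100 TPM in the isotype libraries.

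The other members that are given in full were measured in the CZA arm as follows. The polymerase clamp Pcna had 257, 259, 319, 265 and 254 TPM in CZA anti-PD-1 libraries, against 244, 284, 310, 226 and 311 TPM in CZA isotype libraries. Rrm2, of ribonucleotide reductase, had 55.8, 55.3, 56.5, 91.8 and 84.9 TPM in CZA anti-PD-1 libraries, against 61.6, 70.1, 79.4, 67.6 and 101 TPM in CZA isotype libraries. The helicase subunit Mcm5 had 21.9, 18.6, 13.7, 32.4 and 30.7 TPM in CZA anti-PD-1 libraries, against 20.4, 28.9, 30.6, 30.2 and 34.6 TPM in CZA isotype libraries. CD8-8 was highest for Pcna and lowest for Mcm5 among the anti-PD-1 libraries. The transcription factor E2f1 had 9.03, 10.7, 7.61, 12.2 and 10.6 TPM in CZA anti-PD-1 libraries, against 16.7, 11.4, 11.6, 20.6 and 9.8 TPM in CZA isotype libraries. The microtubule regulator Stmn1 had 622, 408, 365, 745 and 651 TPM in CZA anti-PD-1 libraries, against 535, 655, 535, 690 and 849 TPM in CZA isotype libraries. The mitotic kinase Cdk1 had 57.8, 45.5, 43.2, 79.3 and 64.3 TPM in CZA anti-PD-1 libraries, against 59.8, 74, 81.8, 77.3 and 110 TPM in CZA isotype libraries. CD8-8 was the lowest of the 10 libraries for E2f1, Stmn1 and Cdk1. The cyclin Ccnb1 had 11.7, 15.2, 6.77, 15 and 14.3 TPM in CZA anti-PD-1 libraries, against 11.8, 14.2, 15.2, 10.9 and 18.5 TPM in CZA isotype libraries. The topoisomerase Top2a had 64.1, 68.7, 103, 94.6 and 92.8 TPM in CZA anti-PD-1 libraries, against 84.7, 114, 70.9, 65.4 and 77.4 TPM in CZA isotype libraries. The kinase Plk1 had 5.78, 5.29, 5, 9.9 and 10.2 TPM in CZA anti-PD-1 libraries, against 8.08, 8.71, 10.9, 7.01 and 7.05 TPM in CZA isotype libraries. The groups overlap in all 9 of these genes.

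A fall in one arm and none called in the other does not show that the arms differ, so the difference of the 2 antibody effects was tested as an interaction. No member passed, and no gene of the 12942 did (0%). At an unadjusted p under 0.05 there were 6 members, and 15.7% of all genes. The smallest p-values were those of Ccne1 (log2 difference 0.89) and Tyms (-1.34) among S phase genes and of Stmn1 (-1.17) and Ccnb2 (-0.94) among mitotic genes, with limma adjusted p of 0.290 for Ccne1, Tyms and Stmn1 and 0.305 for Ccnb2. The list medians were -0.62 for S phase and -0.55 for mitotic genes, where all genes had -0.37; under the scaling alternatives they came to -0.11 and -0.05 with TPM rescaled without repeat entries. Averaged over both arms, 11 members were lower with anti-PD-1, 4 S phase genes (Gins2, Tyms, Rrm1 and Ccne2) and 7 mitotic genes (Stmn1, Cdk1, Birc5, Cdca3, Ccnb2, Cdca8 and Cdc20), where 10.8% of all genes were called lower and 2.11% higher; no member was higher. This average uses the same libraries as the 2 arms. The largest averaged changes were -1.11 for Gins2 (limma adjusted p 0.00547), -1.02 for Tyms (limma adjusted p 0.0141) and -0.84 for Stmn1 (limma adjusted p 0.0207), and these 3 passed in every fit with 1 library left out and in every alternative. The averaged count was 3 without CD8-8, 4 without CD8-5 or CD8-15, 5 without CD8-3, CD8-7, CD8-13 or CD8-16, 6 without CD8-4 or CD8-12, and 20 without CD8-20. All genes called lower in these fits came to 3.53% without CD8-8, 4.89% to 7.29% without the other libraries just named, and 18.9% without CD8-20. Of the related lists, the average called lower 6 of 38 other replication genes, with Rfc4 at -0.88, 9 of 50 other mitotic genes, with Spc25 at -0.89 and Smc2 at -0.81, Cks1b at -0.86 and Cdkn1a at -0.65.

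Between the FMT arms no member passed under anti-PD-1, where 0.0386% of all genes were called in either direction. CZA+DAV132 and CZA libraries with anti-PD-1 differed by a list median of -0.54 for S phase and -0.28 for mitotic genes, with all genes at -0.40. The mitotic median was positive under other scalings, at 0.19 with median-ratio scaling and 0.12 with TPM rescaled without repeat entries. Gins2 averaged 9.85 ± 3.39 TPM in CZA+DAV132 anti-PD-1 libraries and 20.4 ± 6.16 TPM in CZA anti-PD-1 libraries, and Tyms averaged 53.2 ± 29.8 TPM in CZA+DAV132 anti-PD-1 libraries and 106 ± 35.5 TPM in CZA anti-PD-1 libraries (SD, n = 5 each). Their log2 changes were -0.99 and -1.09, both at a limma adjusted p of 0.0683, and both passed with array weights and with the stricter filter. No member had groups without overlap, where 2.58% of all genes were lower and 0.386% higher without overlap. Stmn1 (-0.78, limma adjusted p 0.0933) and Ccnb1 (-0.67, limma adjusted p 0.101) had the smallest p among mitotic genes. Without CD8-20 there were 10 called members, where 29.2% of all genes were called lower; without CD8-8 there were 5, where 10.3% were; and without CD8-18 there were 3, where 17% were. At an unadjusted p under 0.05 there were 12 members, and 33.5% of all genes.

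Under isotype no member passed between the arms either, and no gene of the set did (0%). At an unadjusted p under 0.05 there were 2 members, Ccne1 and Ccne2, and 2.47% of all genes. Over 5 equal bins of all genes by transcript length, the median changes lay between -0.08 and 0.01. The median change was 0.04 for S phase genes and 0.18 for mitotic genes. Of the mitotic genes, which share the same libraries and so are not independent, 25 of 26 were positive. These are small values: Bub1, a kinase of the spindle checkpoint, averaged 6.77 ± 2.36 TPM in CZA+DAV132 isotype libraries and 4.43 ± 1.32 TPM in CZA isotype libraries (log2 change 0.50, limma adjusted p 1.0). The S phase median was -0.04 with TPM rescaled without repeat entries. The E cyclins lay on opposite sides, with Ccne1 at 18.0 ± 1.22 TPM in CZA+DAV132 isotype libraries and 26.5 ± 5.92 TPM in CZA isotype libraries, without overlap (lower without overlap: 0.24% of all genes), and Ccne2 at 9.30 ± 3.96 TPM in CZA+DAV132 isotype libraries and 5.24 ± 1.36 TPM in CZA isotype libraries. No member was higher without overlap, where 0.309% of all genes were. Averaged over both antibodies, no member passed between CZA+DAV132 and CZA (0% of all genes called), with Gins2 (-0.54) and Mcm5 (-0.53) of smallest p among S phase genes at a limma adjusted p of 0.275, Ccnb1 (-0.35, limma adjusted p 0.325) and Bub1 (0.30, limma adjusted p 0.375) among mitotic genes, and 4 members at an unadjusted p under 0.05, where 17.4% of all genes were. The list medians were -0.25 for S phase and -0.03 for mitotic genes, with all genes at -0.22, and were 0.04 and 0.23 with median-ratio scaling and 0.01 and 0.15 with the length trend removed.

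In the libraries labelled bulk tumor no member passed in any of the 7 comparisons. The share of all genes called in either direction there was 0.24% for anti-PD-1 in the CZA+DAV132 arm (0.21% lower, 0.03% higher), 0.285% for anti-PD-1 in the CZA arm (0.0075% lower, 0.278% higher), 1.07% for anti-PD-1 averaged (0.548% lower, 0.518% higher), 0.113% between the arms under isotype, 0.045% for the interaction and 0% for the other 2. Changes were harder to call in values simulated for this set from each gene's mean and spread. In each simulation 200 genes with a mean level above about 5 TPM were given a log2 change of 1 or 2. Of those given 1, 1% to 9% were recovered between bulk tumor groups, against 24% to 35% in the CD8 set. Of those given 2, 23% to 53% were recovered, against 87% to 94% in the CD8 set. The values were drawn independently for each gene, so shifts shared by the genes of a library are not in them. The absence of called members in the bulk tumor set does not by itself show a difference from the CD8 set. In T987, a CZA isotype library, 6 members were at 0. At an unadjusted p under 0.05 there were 9 members for anti-PD-1 in the CZA+DAV132 arm (10.3% of all genes), 5 for anti-PD-1 in the CZA arm (13.1%), 4 for their average (12.7%), 0 between the arms under anti-PD-1 (7.58%), 5 between the arms under isotype (10.9%), 3 averaged over antibodies (8.83%) and 7 for the interaction (10.3%).

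With anti-PD-1 in the CZA+DAV132 arm of this set, the list medians were -0.65 for S phase and -0.42 for mitotic genes, with all genes at -0.15. The helicase subunit Mcm6 had 38.5, 24.6, 24.6, 42.0 and 43.1 TPM in CZA+DAV132 anti-PD-1 libraries, against 94.4, 82.8, 64.4 and 59.6 TPM in CZA+DAV132 isotype libraries (log2 change -1.12, SE 0.35, limma adjusted p 0.180). Its groups do not overlap. Mcm7 averaged 46.0 ± 16.1 TPM (n = 5) with anti-PD-1 and 110 ± 10.6 TPM (n = 4) with isotype (log2 change -1.31, limma adjusted p 0.280). Groups without overlap were found for 5 members, all lower: Mcm3, Mcm6, Mcm7, Cdca3 and Stmn1, where 4.43% of all genes were lower and 2.06% higher without overlap. Stmn1 had 149, 209, 87.0, 226 and 218 TPM in anti-PD-1 libraries, against 318, 329, 341 and 268 TPM in isotype libraries (log2 change -0.89, limma adjusted p 0.385). The anti-PD-1 library T026, which has the repeat share of 51.1%, was lowest for Stmn1. Without T026 and T985 the list medians were -0.47 for S phase and -0.19 for mitotic genes. Tyms had 53.9, 25.1, 33.8, 45.2 and 71.7 TPM in anti-PD-1 libraries, against 92.2, 129, 81.5 and 54.5 TPM in isotype libraries, which overlap in T030 and T028 alone.

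The remaining members given in full in the bulk tumor set were these. Rrm2, of ribonucleotide reductase, had 122, 98.3, 65.9, 195 and 148 TPM in CZA+DAV132 anti-PD-1 libraries, against 193, 291, 278 and 164 TPM in CZA+DAV132 isotype libraries. The helicase subunit Mcm5 had 10.7, 13.8, 12.2, 26.8 and 22.2 TPM in CZA+DAV132 anti-PD-1 libraries, against 23.1, 36.4, 44 and 31.5 TPM in CZA+DAV132 isotype libraries. The polymerase clamp Pcna had 386, 264, 166, 573 and 402 TPM in CZA+DAV132 anti-PD-1 libraries, against 484, 548, 360 and 557 TPM in CZA+DAV132 isotype libraries. T026 was the lowest library of both groups for Rrm2 and Pcna. Gins2, of the GINS complex, had 5.92, 4.06, 5.4, 13.8 and 14.8 TPM in CZA+DAV132 anti-PD-1 libraries, against 11.4, 58.1, 15 and 25.4 TPM in CZA+DAV132 isotype libraries. The transcription factor E2f1 had 7.76, 11, 7.33, 12.1 and 12.9 TPM in CZA+DAV132 anti-PD-1 libraries, against 11.6, 14.4, 9.36 and 15.9 TPM in CZA+DAV132 isotype libraries. Mki67 had 29, 24.3, 13.1, 29.8 and 27.1 TPM in CZA+DAV132 anti-PD-1 libraries, against 30.8, 43.5, 34.6 and 28.4 TPM in CZA+DAV132 isotype libraries. T026 was also the lowest library for E2f1 and Mki67. The topoisomerase Top2a had 215, 205, 99.2, 298 and 213 TPM in CZA+DAV132 anti-PD-1 libraries, against 214, 319, 269 and 262 TPM in CZA+DAV132 isotype libraries. The cyclin Ccnb1 had 10.5, 9.99, 5.02, 18.9 and 14 TPM in CZA+DAV132 anti-PD-1 libraries, against 19.1, 21.2, 22 and 15.3 TPM in CZA+DAV132 isotype libraries. The mitotic kinase Cdk1 had 46, 42, 23.6, 78 and 24.5 TPM in CZA+DAV132 anti-PD-1 libraries, against 20.6, 40.6, 62.5 and 77.1 TPM in CZA+DAV132 isotype libraries. T026 was lowest for Top2a and Ccnb1, and T022 for Cdk1. The kinase Plk1 had 6.18, 3.91, 4.58, 7.29 and 6.28 TPM in CZA+DAV132 anti-PD-1 libraries, against 0.088, 1.74, 5.6 and 4.87 TPM in CZA+DAV132 isotype libraries. All 10 of these genes overlap between the groups.

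In the CZA arm of this set, Tyms had 95.1, 96, 40.1, 68.1 and 81.2 TPM in CZA anti-PD-1 libraries, against 117, 165, 62, 26 and 101 TPM in CZA isotype libraries. Rrm2, of ribonucleotide reductase, had 242, 186, 136, 170 and 155 TPM in CZA anti-PD-1 libraries, against 318, 159, 120, 126 and 99.1 TPM in CZA isotype libraries. The helicase subunit Mcm5 had 33.7, 43.3, 28.9, 13.5 and 25.3 TPM in CZA anti-PD-1 libraries, against 59.2, 49.5, 75.4, 22.1 and 33.6 TPM in CZA isotype libraries. T983 was the highest of the 10 libraries for Rrm2 and T986 for Mcm5. The polymerase clamp Pcna had 370, 353, 345, 549 and 412 TPM in CZA anti-PD-1 libraries, against 573, 305, 369, 608 and 429 TPM in CZA isotype libraries. Gins2, of the GINS complex, had 14.1, 9.29, 6.57, 13.3 and 31.9 TPM in CZA anti-PD-1 libraries, against 28.8, 49.7, 7.18, 21.9 and 2.97 TPM in CZA isotype libraries. The transcription factor E2f1 had 13.8, 7.43, 4.73, 5.43 and 4.62 TPM in CZA anti-PD-1 libraries, against 17.7, 14.9, 11.3, 0.346 and 14.2 TPM in CZA isotype libraries. T987 was the lowest for E2f1 and the highest for Pcna. Mki67 had 31.5, 38.5, 28.6, 41.6 and 23.1 TPM in CZA anti-PD-1 libraries, against 29.9, 24.9, 26.4, 12.2 and 36.4 TPM in CZA isotype libraries. The topoisomerase Top2a had 310, 303, 105, 194 and 199 TPM in CZA anti-PD-1 libraries, against 278, 265, 145, 98.5 and 170 TPM in CZA isotype libraries. The cyclin Ccnb1 had 26.6, 24, 18.2, 12.1 and 6.91 TPM in CZA anti-PD-1 libraries, against 30.6, 1.38, 50.1, 2.23 and 1.84 TPM in CZA isotype libraries. Ccnb1 was highest in T986 and lowest in T985, both isotype libraries. The mitotic kinase Cdk1 had 62.6, 41.6, 13.1, 38.7 and 42.3 TPM in CZA anti-PD-1 libraries, against 68.5, 40.3, 62.9, 3.2 and 54.9 TPM in CZA isotype libraries. The kinase Plk1 had 1.94, 4.1, 5.88, 2.63 and 6.37 TPM in CZA anti-PD-1 libraries, against 17.1, 0.304, 3.77, 0.167 and 1.9 TPM in CZA isotype libraries. The microtubule regulator Stmn1 had 256, 252, 251, 230 and 193 TPM in CZA anti-PD-1 libraries, against 348, 212, 522, 87 and 182 TPM in CZA isotype libraries. T987 was the lowest for Cdk1, Plk1 and Stmn1. The groups overlap in all 12 members here.

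With anti-PD-1 in the CZA arm of the bulk tumor set, the lists lay on opposite sides of 0, at -0.14 for S phase and 0.37 for mitotic genes, with all genes at 0.25. No member had groups without overlap, where 0.308% of all genes were lower and 2.09% higher without overlap. The S phase median was 0.01 without T026 and T985. Mcm6 averaged 59.1 ± 23.7 TPM with anti-PD-1 and 105 ± 33.5 TPM with isotype (SD, n = 5 each; log2 change -0.87, limma adjusted p 0.277). Ube2c, which helps the anaphase ligase to mark cyclin B for destruction, averaged 93.6 ± 26.6 TPM with anti-PD-1 and 46.3 ± 22.2 TPM with isotype (log2 change 1.11, limma adjusted p 0.215). Cdc6, which loads the helicase, averaged 9.57 ± 4.72 TPM with anti-PD-1 and 4.98 ± 5.51 TPM with isotype (limma adjusted p 0.414), and Hmmr, a spindle protein, 16.4 ± 5.67 TPM with anti-PD-1 and 6.77 ± 5.53 TPM with isotype (limma adjusted p 0.270). Averaged over the arms, Mcm6 was just short of the threshold (log2 change -0.99, SE 0.24, limma adjusted p 0.0505). Mcm5 followed at -0.83 (limma adjusted p 0.172), with Hmmr (0.91, limma adjusted p 0.331) and Cdca8 (-0.51, limma adjusted p 0.498) among mitotic genes. Mcm6 passed in 5 of 8 alternatives, and in the fits without T029, T982, T987 or T988; without T987 Mcm7 passed too, which gives 2 called members there and 1 in the other 3 fits.

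Between the arms under isotype, the median log2 change in the bulk tumor set was 0.78 for mitotic genes, 0.11 for S phase genes and 0.21 for all genes, with 22 of 26 mitotic genes positive. The mitotic median was between 0.49 and 0.87 over the alternatives, and the S phase median came to -0.05 with median-ratio scaling and -0.14 with the length trend removed. Ube2c had 75.1, 114, 146 and 124 TPM in CZA+DAV132 isotype libraries, against 47.2, 74.9, 56.9, 15.4 and 37.3 TPM in CZA isotype libraries (log2 change 1.42, SE 0.41, limma adjusted p 0.182). The groups do not overlap, though T022 and T985 differ by little, and 1.85% of all genes were higher and 0.39% lower without overlap. Cdca3 had 30.2, 40.2, 108 and 39.1 TPM in CZA+DAV132 isotype libraries, against 17.4, 20.9, 9.43, 2.38 and 32.5 TPM in CZA isotype libraries (log2 change 1.83, limma adjusted p 0.195). Mki67 had 30.8, 43.5, 34.6 and 28.4 TPM in CZA+DAV132 isotype libraries, against 29.9, 24.9, 26.4, 12.2 and 36.4 TPM in CZA isotype libraries, which overlap. Of S phase genes the smallest p were those of Rrm2 (log2 change 0.58, limma adjusted p 0.577) and Cdc6 (1.22, limma adjusted p 0.593).

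The median S phase level minus the median mitotic level in each library, on the log2(TPM + 1) scale, was 0.28, 0.36, 0.70 and 0.60 in CZA+DAV132 isotype libraries, against 0.92, 1.44, 1.61, 0.75 and 1.54 in CZA isotype libraries of the bulk tumor set. The groups do not overlap. This measure was chosen after the values were seen and is given with no test. With anti-PD-1 it was 0.33 to 0.88 in CZA+DAV132 libraries of this set, against -0.02 to 0.88 in CZA libraries, which overlap. In the CD8 set it was 0.47 to 0.68 in CZA+DAV132 isotype libraries, against 0.61 to 0.87 in CZA isotype libraries, which overlap. Of the CZA isotype libraries of the bulk tumor set, T986 has the sarcoma marker sum of 1893 TPM and T985 a repeat share of 13.9%, whose part in these values was not tested. The interaction in this set had its smallest p in Cdca3 (log2 difference -2.52, limma adjusted p 0.299) and Ube2c (-1.54, limma adjusted p 0.403) among mitotic genes, and in Rrm2 (-1.14, limma adjusted p 0.435) and Ccne1 (1.43, limma adjusted p 0.460) among S phase genes. Averaged over antibodies, the smallest p between the arms were those of Mcm6 (-0.56, limma adjusted p 0.509) and Mcm5 (-0.56, limma adjusted p 0.600), and of Aurkb, the passenger complex kinase (1.23, limma adjusted p 0.500), and Ube2c (0.65, limma adjusted p 0.517). Under anti-PD-1 the arms differed by list medians of -0.31 for S phase and -0.10 for mitotic genes, with all genes at -0.19. No member had groups without overlap there, where 1.91% of all genes were lower and 0.233% higher without overlap. The mitotic median was 0.18 with median-ratio scaling and 0.10 with TPM rescaled without repeat entries. The smallest p there were those of Mcm6 (-0.69, limma adjusted p 0.665), Mcm5 (-0.71, limma adjusted p 0.745), Stmn1 (-0.48, limma adjusted p 0.857) and Cdca3 (-0.68, limma adjusted p 0.859).

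**Figure D5:**
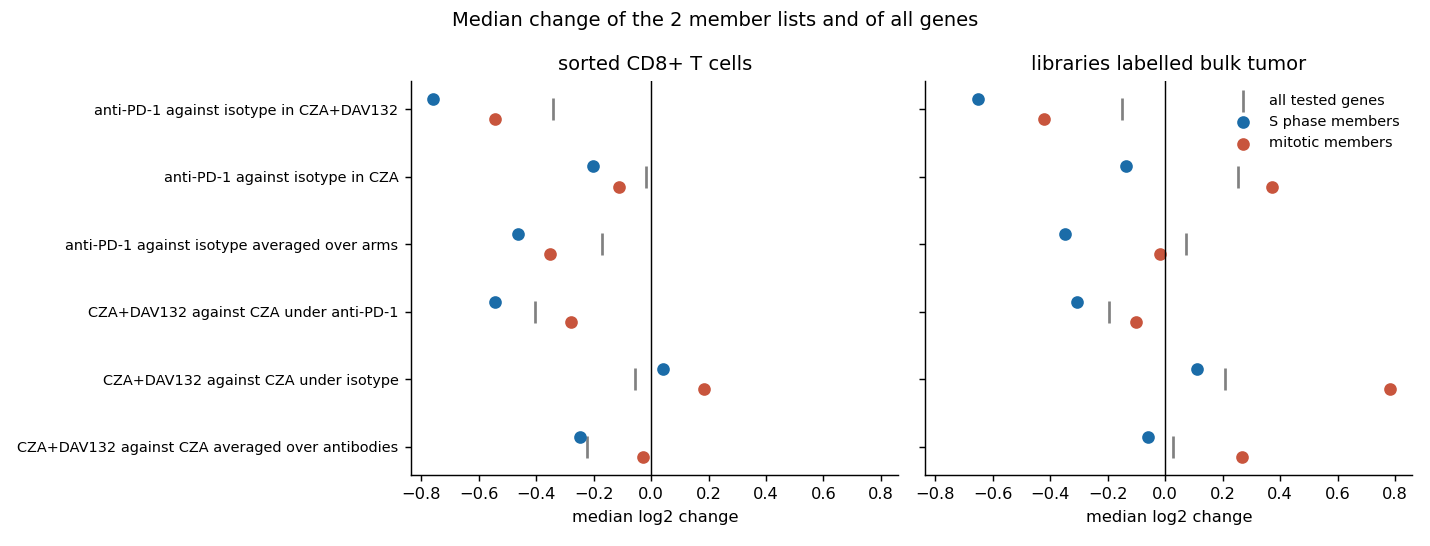
Median log2 change of the S phase genes (blue), the mitotic genes (red) and all tested genes (grey bar) in 6 comparisons of each set, CD8+ T cells on the left and libraries labelled bulk tumor on the right. In CD8+ T cells the lists lie lowest for anti-PD-1 against isotype in the CZA+DAV132 arm (-0.76 and -0.54, with all genes at -0.34); in the bulk tumor set the mitotic genes lie highest between the arms under isotype (0.78).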

How the data were processed

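Expression values of 20 libraries of sorted CD8+ T cells and 19 libraries labelled bulk tumor were deposited by the authors as TPM, 1 table per set. Kallisto 0.45 and the build GRCm38 were used, per the submitters' processing notes; the annotation, and how transcripts were summed, is not given in the sources used here. Groups come from the sample titles, per the labels. TPM hold no counts, so depth and counting error are unknown. All value columns were used, and no 2 were identical.

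Values were set on the log2(TPM + 1) scale, which understates changes of low genes. A gene entered the fit of a set if 4 or more of its libraries had 1 TPM or more. Fits were made with limma 3.58.1 (R 4.3.3; mean-variance trend, 1 mean per group) over all 4 groups, for 7 comparisons per set. P-values were adjusted over all genes tested (Benjamini-Hochberg) and called under 0.05. Of 28023 symbols, 27787 matched GENCODE M21, which gave transcript lengths; repeat entries were 18 symbols whose transcripts are mostly satellite or simple repeats.

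The text names 12 members with every library. In each comparison it names up to 6 called members per list of smallest p (or 2 that did not pass). It also names up to 4 called genes of largest change per related list. Members outside this rule are named as counted, and Mcm3, Mcm4 and Mcm7 also to complete the helicase ring. Members and lists were chosen with earlier results of these data known. Alternatives tried were fitting the compared groups alone, no filter, a pseudocount of 0.1, a mean of at least 5 TPM, median-ratio scaling, TPM rescaled without repeat entries, array weights, the 2 libraries of each set richest in repeats left out (CD8-16 and CD8-19, T026 and T985), each library left out, and the length trend removed in each library.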

Additional observations from a re-analysis of the deposited data

Results flagged for a closer look

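Within groups of 4 or 5 libraries, 5 of 112 sets of values had a library far from the rest, by the gap to its nearest neighbour over the whole range; chance gives about 1 in 20. Pcna, the DNA polymerase clamp, was at 319 TPM in CD8-8, a CZA anti-PD-1 library, where the others of its group had 254 to 265 TPM. Rrm2, of ribonucleotide reductase, was at 318 TPM in T983, a CZA isotype library labelled bulk tumor, where the others had 99.1 to 159 TPM. Plk1, the mitotic kinase, was at 17.1 TPM in that same library T983, where the others had 0.167 to 3.77 TPM. The median level of the mitotic genes on the log2(TPM + 1) scale was 5.3 in T024, a CZA+DAV132 isotype library, where the others had 4.49 to 4.53. The median level of the S phase genes on that scale was 4.6 in T987, a CZA isotype library in which 6 members were at 0, where the others had 5.49 to 5.83.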

How the results depend on the processing

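No list median changed sign for anti-PD-1 in either arm of the CD8 set under any alternative; medians of other comparisons did, as for averaged anti-PD-1 in the bulk tumor set (mitotic -0.02, and -0.05 to 0.14 with 1 library left out) and for its arms averaged over antibodies (S phase -0.06, and -0.16 to 0.03). For anti-PD-1 in the CZA+DAV132 arm of the CD8 set, called members numbered 21 (all genes called in either direction: 23.5%), against 6 in the fit of only the groups compared (12.1%), 13 with no filter (10.6%), 9 with TPM rescaled without repeat entries (19.6%), 4 without CD8-16 and CD8-19 (9.43%), and 8 to 28 with 1 library left out (14% to 34.6%). For anti-PD-1 averaged over the arms they numbered 11 (12.9%), against 5 with no filter (3.33%), 7 with TPM rescaled without repeat entries (17.1%), 7 without CD8-16 and CD8-19 (15.4%), and 3 to 20 with 1 library left out (4.31% to 21.8%). Between the arms under anti-PD-1 they numbered 0 (0.0386%), against 3 with the stricter filter (18.1%), 2 with array weights (4.18%), 1 with the length trend removed (Ccne1, higher; 0.185%) and 0 to 10 with 1 library left out (0% to 31%). For averaged anti-PD-1 in the bulk tumor set they numbered 0 (1.07%), against 1 (Mcm6; 1.25% to 2.21%) with a pseudocount of 0.1, the stricter filter, median-ratio scaling, array weights or the length trend removed, and 0 to 2 with 1 library left out (0% to 1.48%). Fewer samples enter the fits without libraries and of only the groups compared; otherwise the cause was not tested. In the CD8 set 14.3% of all genes were called lower and 11.5% higher for anti-PD-1 in the CZA+DAV132 arm under median-ratio scaling, against 19.4% and 4.12% as deposited. The 21 called members kept 117 of 189 calls over the 9 alternatives of that comparison and 326 of 420 with 1 library left out. The length alternative was chosen after seeing the data. No paired analysis was possible because the library numbers are not shared between groups.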
